A study of Mus musculus with 9 samples.

Results

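Members of the Src family of tyrosine kinases (Src, Fgr, Lyn, Fyn), their negative regulators Csk and Pag1, and the adhesion adaptors and kinase that work beside them (Bcar1, Bcar3, Ptk2b) were followed in IMQ-stimulated peritoneal macrophages. These 9 genes, of 54059 in the table, were chosen by name, partly because Bcar3 and Src had already been seen to change with SHP099, so their values in the SHP099 libraries are given as a description, with no test. That change was seen against the wild-type libraries, so tests of Src and Bcar3 in M-Shp2-/- share libraries with the choice. All 9 passed the filter on low values, which asked for an average FPKM of 1 or more, as did 11450 genes in all. FPKM counts fragments relative to transcript length and to the reads counted in the library, so levels of different genes can be set side by side.

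The study asked what loss or inhibition of SHP2, the tyrosine phosphatase encoded by Ptpn11, does to the response of macrophages to imiquimod (IMQ), a TLR7 agonist. RNA was sequenced from 3 groups of 3 libraries. All mice were labelled C57BL/6 and 8 weeks old, and all received 1 ml of starch broth in the peritoneal cavity 3 days before the cells were collected and the adherent ones cultured. The wild-type group came from wild-type mice. The M-Shp2-/- group came from Lyz2-cre:Shp2 fl/fl mice (genotype label SHP2lyz2-/-), in which Shp2 is removed in cells that express Lyz2, such as monocytes, macrophages and granulocytes. The SHP099 group came from wild-type mice, and its cells were pretreated for 2 h with 10 μM SHP099, an allosteric SHP2 inhibitor. By the study's methods all groups were stimulated with IMQ for 4 h, at 10 μg/ml in the SHP099 experiment, so that no library shows unstimulated cells. Whether the libraries of a group came from separate mice is not stated, so p-values measure the spread between these samples, which may be technical.

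Src-family kinases sit at the inner face of the plasma membrane and pass signals from integrins, Fc receptors and other receptors. Csk holds them inactive by phosphorylating a tyrosine near their C-terminus, and the transmembrane adaptor Pag1 can bring Csk to the membrane. Active kinases phosphorylate scaffolds of the Cas family, such as Bcar1, which Bcar3 binds and which link adhesion sites to the actin cytoskeleton, together with Ptk2b (Pyk2), the focal adhesion kinase relative found in myeloid cells.

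The genotype labels were checked first. Ptpn11 was at 45.8, 44.0 and 40.0 FPKM in wild-type replicates 1, 2 and 3, at 18.6, 17.8 and 18.9 FPKM in the M-Shp2-/- replicates and at 43.0, 42.1 and 39.6 FPKM in the SHP099 replicates. Each M-Shp2-/- library was thus below every other library, and the inhibitor group overlapped wild type. On the log2(FPKM + 1) scale used throughout, which understates changes of low genes, Ptpn11 fell by 1.19 in M-Shp2-/- (SE 0.0956, lower in 3 of 3 libraries, limma adjusted p = 0.0168). That call was lost under some of the alternatives, as given below. Macrophage markers were present, since all 8 had a mean FPKM of at least 1 and the most abundant, Lyz2, was at 4743 FPKM or more in every library. Some of them differed between groups: Csf1r rose by 1.38 with SHP099 (limma adjusted p = 0.0222), and Lyz2 and Mertk were lower in every M-Shp2-/- library than in any wild-type library, by log2 fold changes of -0.76 and -0.97 (-0.82 and -0.99 without replicate 3) that did not pass the threshold of 0.05 (limma adjusted p = 0.388 and 0.454). The other markers went both ways, and none passed the threshold. With SHP099 Fcgr1, Cd14, Adgre1, Mertk and Cd68 were at -0.52, -0.43, -0.40, -0.32 and -0.14, and Lyz2 and Itgam at 0.26 and 0.09. In M-Shp2-/- Csf1r and Cd68 were at 0.44 and 0.13 (0.06 and 0.28 without replicate 3). Fcgr1, Cd14, Itgam and Adgre1 were at -0.82, -0.68, -0.21 and -0.11 there (-1.25, -0.99, -0.60 and -0.09). The part of these differences in the results below was not tested.

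Replicate 3 of M-Shp2-/- stood apart from its group. Over the 11450 genes tested, the root-mean-square log2 difference was 0.265 between M-Shp2-/- replicates 1 and 2, and 0.521 and 0.616 between each of these and replicate 3. This replicate 3 differed by 0.364, 0.449 and 0.463 from SHP099 replicates 1, 2 and 3, and by 0.403 from wild-type replicate 2. For 68.6% of the genes replicate 3 was nearer to the SHP099 mean than to the mean of replicates 1 and 2, and the same held for 7 of the 9 genes, the exceptions being Src and Lyn. For some of the 7 the difference was slight. Bcar1 was 1.01 above wild type in replicate 3, beside 0.37 with SHP099 and 0.35 in replicates 1 and 2. Csk was at 0.08, beside 0.22 and 0.23. Ptk2b was far from both, at -0.54 beside -0.10 and 0.06. Ptpn11 in M-Shp2-/- replicate 3 was at the level of the other M-Shp2-/- libraries. Wild-type replicate 3 also differed from replicates 1 and 2, by 0.487 and 0.528, more than these did from each other (0.369). Wild-type replicate 1 was nearer to M-Shp2-/- replicate 2, at 0.332, than to any other wild-type library. Results for M-Shp2-/- are therefore given with and without replicate 3. A further shift concerned all genes: the median log2 fold change was 0.15 in M-Shp2-/- and 0.13 in SHP099 against wild type, and -0.01 in both after median-of-ratios scaling of the libraries. Changes are given as deposited, and a value below about this median turns negative when libraries are scaled.

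**Figure D1:**
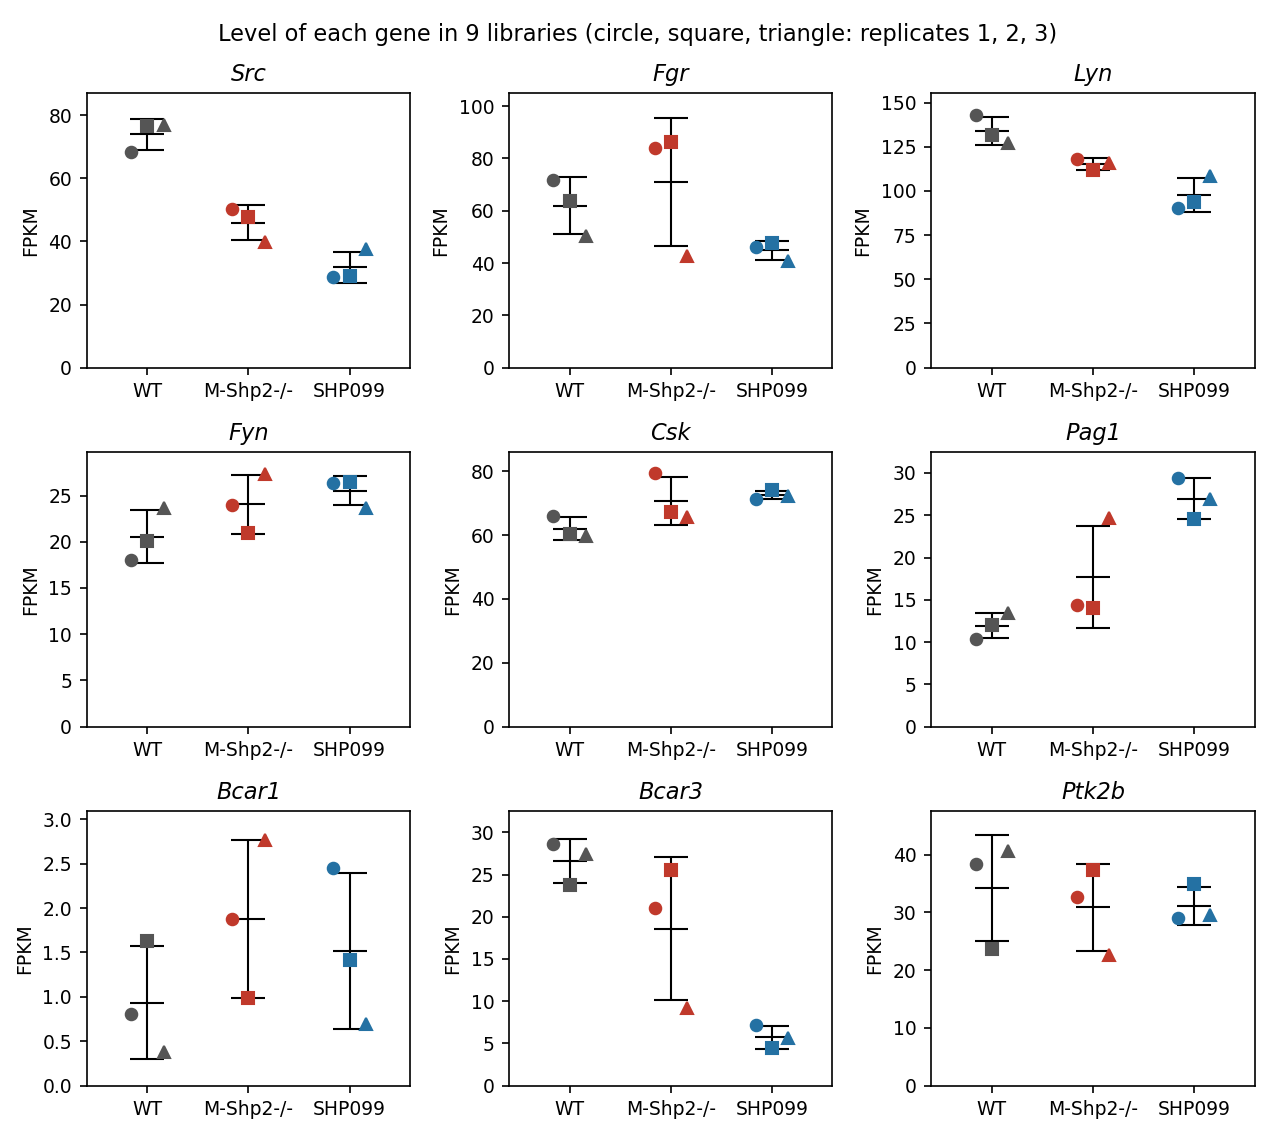
FPKM of the 9 genes (y axes, from 0) in wild-type, M-Shp2-/- and SHP099 libraries, 3 per group; each point is a library, and black bars give the mean and SD. Src falls into separate ranges in the 3 groups, from 68.3 to 76.9 FPKM in wild type to 28.9 to 37.6 FPKM with SHP099, and M-Shp2-/- replicate 3 (triangle) lies apart for Bcar3, Pag1 and Fgr.

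Src, the founding kinase of the family (ENSMUSG00000027646, chr2:157418444-157471862, plus strand, GRCm38), had separate levels in the 3 groups. Wild-type replicates 1, 2 and 3 were at 68.3, 76.7 and 76.9 FPKM, M-Shp2-/- replicates at 50.3, 47.8 and 39.9 FPKM, and SHP099 replicates at 28.9, 29.0 and 37.6 FPKM. No library of a group reached the range of another group, and all M-Shp2-/- libraries lay between the wild-type and the SHP099 ones. Group levels were 74.0 ± 4.89, 46.0 ± 5.41 and 31.8 ± 4.98 FPKM (SD, n = 3 each), which puts M-Shp2-/- at 62.2% and SHP099 at 43.0% of wild type. The log2 fold change in M-Shp2-/- was -0.68 (SE 0.116, lower in 3 of 3 libraries) and did not pass the threshold of 0.05 after adjustment over all genes (limma adjusted p = 0.277). Without replicate 3 it was -0.58. With SHP099 it was -1.20, as a description. Between 2669 and 9028 reads stood behind each of these values, so counting error is small beside the spread between libraries.

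Bcar3, an adaptor of the NSP family that binds Cas proteins (ENSMUSG00000028121, chr3:122294136-122530191, plus strand), was far lower in the SHP099 libraries. Its level was 28.7, 23.7 and 27.5 FPKM in wild type, 21.0, 25.5 and 9.14 FPKM in M-Shp2-/- and 7.14, 4.41 and 5.62 FPKM with SHP099. M-Shp2-/- replicate 2 was within the wild-type range and replicate 1 just below it, whereas replicate 3 lay between the wild-type and the SHP099 libraries. The group levels were 26.6 ± 2.59, 18.6 ± 8.46 and 5.72 ± 1.37 FPKM (SD, n = 3 each), and SHP099 was at 21.5% of wild type. The log2 fold change of -0.61 in M-Shp2-/- (SE 0.346, lower than the wild-type mean in 3 of 3 libraries, limma adjusted p = 0.509) became -0.19 without replicate 3. With SHP099 it was -2.05, the largest change among the 9 genes. Exons of Gm42836 overlap those of Bcar3 by 698 bases on the opposite strand, and the counting was not stated to use strand, so whether reads over these bases were left uncounted cannot be told. Gm42836 was listed at 0 in every library.

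For Src and Bcar3, the genes already seen to change with SHP099, the bases before their starts in RefSeq (GRCm38.p6) are shown. Both were lower in every SHP099 library than in any wild-type library, as were Lyn and Fgr, whose stretches are not shown. RefSeq had promoter entries for 6 of the 9 genes. Each run covers 250 bases upstream on the plus strand, and capitals mark GC boxes. The Src stretch is chr2:157424043-157424292, and Bcar3 has 2 entries, with stretches at chr3:122419507-122419756 and chr3:122483319-122483568. These RefSeq starts lie inside the gene spans given above, which come from GENCODE M21 and begin further upstream, and the bases before those outermost starts are not shown.
Src: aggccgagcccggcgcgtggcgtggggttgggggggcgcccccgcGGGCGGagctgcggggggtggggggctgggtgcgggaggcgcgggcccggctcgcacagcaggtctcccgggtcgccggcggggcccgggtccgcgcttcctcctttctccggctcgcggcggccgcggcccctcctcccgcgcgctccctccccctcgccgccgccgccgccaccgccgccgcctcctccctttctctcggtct
Bcar3, first start: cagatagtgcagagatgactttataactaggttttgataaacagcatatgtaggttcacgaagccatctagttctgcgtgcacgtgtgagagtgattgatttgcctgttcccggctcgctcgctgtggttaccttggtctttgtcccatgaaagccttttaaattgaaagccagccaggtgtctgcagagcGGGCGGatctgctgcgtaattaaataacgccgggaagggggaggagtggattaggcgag
Bcar3, second start: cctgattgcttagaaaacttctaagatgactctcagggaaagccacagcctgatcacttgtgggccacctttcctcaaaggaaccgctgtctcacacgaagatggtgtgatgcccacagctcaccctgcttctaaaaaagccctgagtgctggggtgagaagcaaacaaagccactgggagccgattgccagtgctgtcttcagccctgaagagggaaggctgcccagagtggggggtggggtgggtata
The motifs searched, on both strands, do not contain one another: AP-1 (TGANTCA), the CRE core (TGACG), the GC box (GGGCGG) and an ETS core (CCGGAA). Of 32851 upstream stretches of this length, 6.75% hold the AP-1 letters, 17.8% the CRE core, 32.7% the GC box and 12.03% the ETS core. Src and the first start of Bcar3 each hold 1 GC box, the second start of Bcar3 holds none, and none of the 3 stretches holds the letters of the other motifs. The stretches differ in composition: Src has 40 CpG dinucleotides and 82.8% G and C, the first start of Bcar3 12 CpG and 49.2%, and its second start 3 CpG and 54.4%, against medians of 6 CpG and 52.4% over all stretches. A match or its absence describes these letters in this window only.

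Lyn, the most abundant of the 4 Src-family members chosen (chr4:3678115-3813122), followed the order of Src with smaller steps. It was at 143, 132 and 127 FPKM in wild type, 118, 112 and 116 FPKM in M-Shp2-/- and 90.6, 93.6 and 108 FPKM with SHP099. As for Src, the groups did not overlap. Their means were 134 ± 8.06, 115 ± 3.33 and 97.6 ± 9.57 FPKM (SD, n = 3 each). In M-Shp2-/- the log2 fold change was -0.21 (SE 0.0842, lower in 3 of 3 libraries, limma adjusted p = 0.465), or -0.22 without replicate 3, and with SHP099 it was -0.46. Gm26857, on the opposite strand and overlapping Lyn by 248 bases, was at 0.71 FPKM or less in every library.

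Fgr, a Src-family kinase typical of myeloid cells (chr4:132974095-133001910), varied mostly within the M-Shp2-/- group. It was at 71.7, 63.8 and 50.4 FPKM in wild type, 84.1, 86.1 and 42.6 FPKM in M-Shp2-/- and 46.0, 47.8 and 40.7 FPKM with SHP099. M-Shp2-/- replicates 1 and 2 were above every wild-type library and replicate 3 below all of them. The M-Shp2-/- change was 0.14 with all libraries (SE 0.288, limma adjusted p = 0.817), 0.47 without replicate 3 and -0.04 after median-of-ratios scaling, so it has no settled direction. With SHP099 the change was -0.45 and no SHP099 library reached the wild-type range.

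Fyn, a broadly expressed member of the family (chr10:39368855-39565381), ran from 18.0 to 23.6 FPKM in wild type, from 20.9 to 27.3 FPKM in M-Shp2-/- and from 23.7 to 26.5 FPKM with SHP099. The SHP099 libraries were above the wild-type ones, the lowest by a small margin, and M-Shp2-/- overlapped wild type. Its log2 fold changes of 0.22 in M-Shp2-/- (SE 0.146, limma adjusted p = 0.539; 0.12 without replicate 3) and 0.30 with SHP099 exceeded the median of all genes by 0.07 and 0.18. It was thus the one Src-family member of those chosen that was not lower with SHP099, under the scalings tried as well.

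Csk, the kinase that restrains the family (chr9:57626646-57653631, minus strand), differed little in level between groups. It ranged from 59.6 to 66.1 FPKM in wild type, from 65.7 to 79.5 FPKM in M-Shp2-/- and from 71.4 to 74.1 FPKM with SHP099. Every SHP099 library was above every wild-type one, while M-Shp2-/- overlapped wild type. The log2 fold change in M-Shp2-/- was 0.18 (SE 0.106, limma adjusted p = 0.511; 0.23 without replicate 3), which is 0.04 above the median of all genes, and with SHP099 it was 0.22, or 0.10 above that median.

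Pag1, the adaptor that anchors Csk (ENSMUSG00000027508, chr3:9687479-9833679, minus strand), moved opposite to Src and Bcar3 with SHP099. It was at 10.4, 12.05 and 13.4 FPKM in wild type, 14.4, 14.0 and 24.6 FPKM in M-Shp2-/- and 29.4, 24.5 and 26.95 FPKM with SHP099. Every M-Shp2-/- library was above the wild-type range, replicates 1 and 2 narrowly, while replicate 3 was inside the SHP099 range. Levels of 11.9 ± 1.503, 17.7 ± 6.04 and 26.96 ± 2.47 FPKM (SD, n = 3 each) put SHP099 at 2.26 times wild type. The log2 fold change was 0.49 in M-Shp2-/- (SE 0.229, higher in 3 of 3 libraries, limma adjusted p = 0.478), 0.24 without replicate 3 and 1.11 with SHP099.

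Bcar1, the Cas scaffold (chr8:111710474-111743809, minus strand), was close to the limit of the filter. It was at 0.810, 1.62 and 0.376 FPKM in wild type, 1.87, 0.988 and 2.77 FPKM in M-Shp2-/- and 2.45, 1.41 and 0.696 FPKM with SHP099. The groups overlapped widely, and only 44 to 348 reads stood behind each value. The 5 libraries with the highest Bcar1 were the 5 with the highest summed level of 6 fibroblast markers. Pag1 and Fyn each had 4 of these libraries among their own top 5, Lyn and Csk 3, and Src, Fgr, Bcar3 and Ptk2b 2. The fibroblast sums ran over the wild-type, M-Shp2-/- and SHP099 replicates as 63.8, 303 and 39.8 FPKM, 135, 51.4 and 586 FPKM, and 361, 137 and 101 FPKM. Of these markers 5 had a mean FPKM of at least 1, the most abundant was Col1a1 with up to 206 FPKM, and none was at 0 in all libraries. In such bulk samples, fewer cells of a type and less RNA per cell cannot be told apart. Which cells the Bcar1 reads came from was not tested. With a fibroblast score as a covariate, the Bcar1 change in M-Shp2-/- went from 0.57 (SE 0.327, limma adjusted p = 0.509; 0.35 without replicate 3) to 0.38.

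**Figure D2:**
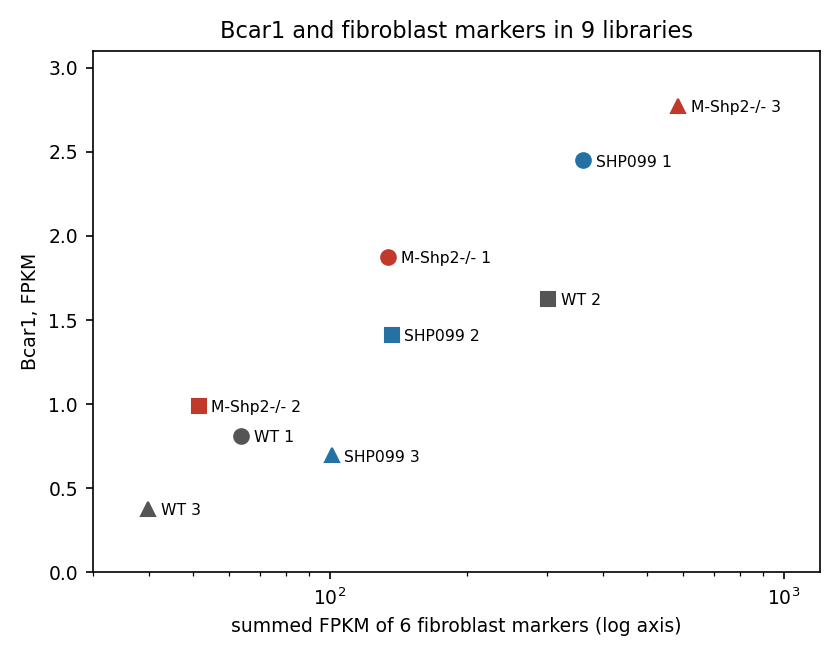
Bcar1 (y axis, FPKM) against the summed FPKM of 6 fibroblast markers (x axis, log scale) in the 9 libraries, one point each, with colors for groups and shapes for replicates. Bcar1 goes from 0.376 FPKM in wild-type replicate 3 to 2.77 FPKM in M-Shp2-/- replicate 3, the libraries with the lowest and the highest marker sums.

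Ptk2b, the Pyk2 kinase (chr14:66153257-66281052, minus strand), showed no separation of groups. It ranged from 23.7 to 40.6 FPKM in wild type, from 22.7 to 37.3 FPKM in M-Shp2-/- and from 29.0 to 34.9 FPKM with SHP099. Its log2 fold change was -0.14 in M-Shp2-/- (SE 0.258, limma adjusted p = 0.798), 0.06 without replicate 3 and -0.10 with SHP099. The SHP099 value has no settled direction, since it ran from -0.34 to 0.04 with a library left out.

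The order of levels differed between groups. In wild type it ran Lyn, Src, Csk, Fgr, Ptk2b, Bcar3, Fyn, Pag1 and Bcar1, and the libraries overlapped between the neighbours Csk and Fgr and between the neighbours Ptk2b and Bcar3, and Fgr also reached into the range of Src. In M-Shp2-/- Src stood behind Fgr and Csk, and Fyn stood before Bcar3, with overlaps between Fgr and Csk and along the run from Ptk2b over Fyn and Bcar3 to Pag1, and with Fgr of replicate 3 inside the range of Src. Without replicate 3 Bcar3 stood before Fyn, at means of 23.3 and 22.4 FPKM, and these were the only neighbours that overlapped. With SHP099 Bcar3 was next to last, below Pag1 and Fyn, with no overlap between Fyn and Bcar3, and along the run from Src over Ptk2b and Pag1 to Fyn each gene overlapped the next.

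**Figure D3:**
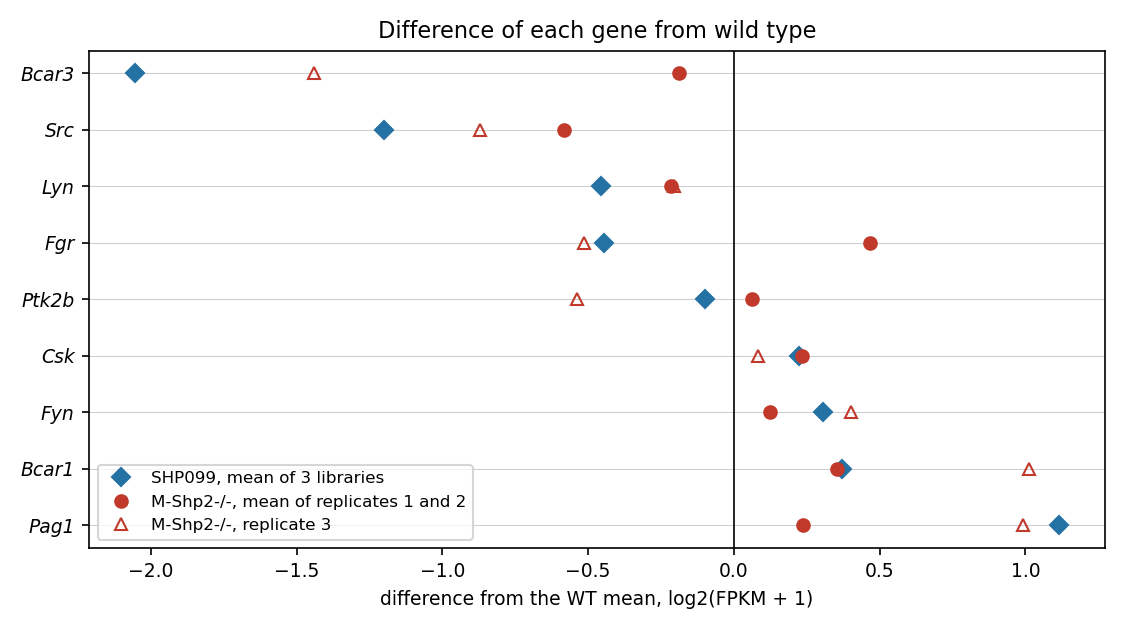
Difference from the wild-type mean (x axis, log2(FPKM + 1)) for the 9 genes, as the mean of 3 SHP099 libraries, the mean of M-Shp2-/- replicates 1 and 2, and M-Shp2-/- replicate 3 alone. For Bcar3 the differences are -2.05, -0.19 and -1.44, and for Pag1 1.11, 0.24 and 0.99.

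In M-Shp2-/- against wild type, limma called 0 of the 9 genes at the 0.05 threshold on adjusted p and 10 of 11450 genes, all lower, or 0.0873%. At an unadjusted p under 0.05 there were 2 of the 9, Src and Lyn, and 1203 of all genes, and voom on recovered reads also called 0 of the 9. Src and Bcar3 were chosen by a change against these same wild-type libraries, so counts that include them are a description. With 3 libraries a side, changes as small as those of the 9 genes seldom pass this threshold, so 0 calls do not show that the genes are unchanged. The libraries of these groups did not overlap for 3 of the 9 genes (Src, Lyn, Pag1) and for 19.1% of all genes. The smallest two-sided p that an exact permutation test allows here is 0.1. The count of 10 depended on single libraries: without wild-type replicate 1, 2 or 3 it was 2, 1 or 5, and without M-Shp2-/- replicate 1, 2 or 3 it was 1, 1 or 8. That all were lower depended on the settings too: with no filter 5 genes were higher and 6 lower, and 1 was higher with quantile normalization and 1 with all 9 libraries in one fit.

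With SHP099 against wild type, 797 of the 11450 genes were called, or 6.96%, and the libraries did not overlap for 34.6%. This contrast helped to choose the 9 genes, so calls among them are not counted. Both comparisons use the same wild-type libraries. Of the 797 genes called, 521 were higher and 276 lower, a split that became 172 and 339 with median-of-ratios scaling and 344 and 356 with quantile normalization. Without wild-type replicate 1, 2 or 3 the count of 797 became 284, 399 or 1273, and without SHP099 replicate 1, 2 or 3 it became 90, 47 or 116.

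Set directly against SHP099, M-Shp2-/- had 8 genes called of 11450, or 0.0699%. The libraries did not overlap for 17.7% of all genes. For the 9 genes this comparison too is a description, because it uses the SHP099 libraries by which Src and Bcar3 were chosen. Src, Bcar3 and Lyn were higher in every M-Shp2-/- library, with log2 fold changes of 0.52, 1.45 and 0.24 (0.62, 1.87 and 0.24 without replicate 3). Pag1 was at -0.63 and Fgr at 0.59 (-0.88 and 0.91 without replicate 3). Leaving out M-Shp2-/- replicate 3 took the count of genes called from 8 to 2277, and leaving out replicate 1 or 2 of M-Shp2-/- took it to 0 or 2, while it was 0 without any one SHP099 library.

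Genes that work with the family were followed in 6 lists of 103 genes in all, of which 92 passed the filter. In M-Shp2-/- against wild type, 1 of the 92 was called, the targeted gene Ptpn11 itself, lower, from the list of regulators. Its call was lost without wild-type replicate 1 or 2 or M-Shp2-/- replicate 1 or 2, with log2 fold changes of -1.15 to -1.19 and adjusted p of 0.105 to 0.196 (0.00186 to 0.196 over all alternatives). The call was also lost with a replicate block and at the study's thresholds. With SHP099 3 of the 92 were higher and 5 lower, or 3.26% and 5.43%, beside 4.55% and 2.41% of all genes. In M-Shp2-/- against SHP099, 1 of the 92 was called, again Ptpn11. The SHP099 count of 8 became 3, 3 or 18 without wild-type replicate 1, 2 or 3 and 1 without any one SHP099 library. The count of 1 between M-Shp2-/- and SHP099 became 33 without M-Shp2-/- replicate 3, beside 2277 of all genes, and 0 without any other library.

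Among the list genes called with SHP099, the largest changes were in integrin subunits, the adhesion receptors that signal through Src-family kinases. Of 12 subunits, all above the filter, 3 fell with SHP099, which is 25.0%, beside 6.96% of all genes called. The median log2 fold change was -0.32, beside 0.13 over all genes. Of these 3, only Itga5 kept an adjusted p under 0.05 over all alternatives (0.0293 at most). The adjusted p reached 0.184 for Itgax and 0.122 for Itgav, with changes of -2.57 to -1.80 and -1.09 to -0.79. The median in M-Shp2-/- was -0.14, or 0.09 without replicate 3, beside 0.15 and 0.18 over all genes.

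Itgax (CD11c) was at 162, 77.8 and 54.9 FPKM in wild type, 199.6, 267 and 13.5 FPKM in M-Shp2-/- and 14.9, 19.5 and 20.2 FPKM with SHP099. M-Shp2-/- replicate 3 was thus the lowest library of all and the other M-Shp2-/- libraries the highest. Itgax fell by 2.23 with SHP099 (SE 0.363, lower in 3 of 3 libraries, limma adjusted p = 0.0224). Itga5, a fibronectin receptor subunit, was steadier within groups, at 217, 212 and 202 FPKM in wild type, 213, 214 and 123 FPKM in M-Shp2-/- and 107, 110.4 and 109 FPKM with SHP099. Apart from M-Shp2-/- replicate 3, the first 2 groups shared a level well above that of SHP099. It fell by 0.94 with SHP099 (SE 0.0689, lower in 3 of 3 libraries, limma adjusted p = 0.00369). Itgav, a vitronectin receptor subunit, was at 43.6, 57.9 and 40.4 FPKM in wild type, 33.7, 29.9 and 31.3 FPKM in M-Shp2-/- and 27.3, 21.3 and 23.4 FPKM with SHP099, with no overlap between groups. Its decrease with SHP099 was -0.94 (SE 0.156, limma adjusted p = 0.0228), and its M-Shp2-/- value of -0.55 (-0.54 without replicate 3) had a limma adjusted p of 0.448. Exons of Itgav overlap Gm13684 on the opposite strand by 634 bases.

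Among 34 focal adhesion and podosome genes, 32 passed the filter and 2 rose with SHP099, with a median of 0.02. These calls were 6.25% of the 32, close to the 6.96% of all genes called with SHP099. Fermt3 (kindlin-3), which activates integrins in blood cells, went from 74.5 ± 1.25 FPKM in wild type to 98.9 ± 0.435 FPKM with SHP099 (SD, n = 3 each; log2 fold change 0.40, higher in 3 of 3 libraries, limma adjusted p = 0.0224). Skap2, an adaptor substrate of the family in macrophages, went from 121 ± 5.76 to 164 ± 8.60 FPKM (log2 fold change 0.44, higher in 3 of 3, limma adjusted p = 0.0269). In M-Shp2-/- both genes had their highest level in replicate 3. Neither passed the threshold after median-of-ratios scaling, with changes of 0.25 and 0.29. Under that scaling 0 genes of the 6 lists together were higher and 8 lower. The median of the focal adhesion and podosome genes was 0.08 in M-Shp2-/- (0.07 without replicate 3). Ilk, a partner of the integrin tail, was listed at 0.237 FPKM or less, and its exons overlap those of Taf10 by 2106 bases on the opposite strand.

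In the list of 16 regulators of the family 13 passed the filter. Of these, 7.69% were called with SHP099, close to the 6.96% of all genes. With SHP099 1 rose, Ptpra, a receptor phosphatase that removes the inhibitory phosphate from Src. It was at 38.4, 40.4 and 44.1 FPKM in wild type, 44.6, 42.2 and 57.3 FPKM in M-Shp2-/- and 58.2, 59.4 and 57.7 FPKM with SHP099. The log2 fold change was 0.50 with SHP099 (SE 0.0810, higher in 3 of 3 libraries, limma adjusted p = 0.0220), lost after median-of-ratios scaling at 0.36, and 0.21 in M-Shp2-/- (limma adjusted p = 0.526; 0.08 without replicate 3). Ptprc (CD45), another phosphatase known for this role, had log2 fold changes of -0.08 in M-Shp2-/- (-0.04 without replicate 3) and -0.11 with SHP099, neither past the threshold. List medians were -0.07 in M-Shp2-/- (0.08 without replicate 3) and -0.00454 with SHP099.

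The Cas and Crk adaptor module, through which Bcar1 and Bcar3 act on small GTPases, had 14 of 16 genes above the filter. Of these 1, the GTPase Rac2, fell with SHP099, which is 7.14%, close to the 6.96% of all genes called. Rac2 was at 259 ± 35.6 FPKM in wild type, 232 ± 34.3 FPKM in M-Shp2-/- and 168 ± 21.2 FPKM with SHP099 (SD, n = 3 each), and its change with SHP099 was -0.62 (SE 0.132, lower in 3 of 3 libraries, limma adjusted p = 0.0403). Over the alternatives its change ran from -0.77 to -0.52 and its adjusted p from 0.0225 to 0.176, so the call was lost in some of them. Of the Cas scaffolds, Nedd9 was the main one, at 12.2 to 21.4 FPKM, whereas Bcar1 was at 2.77, Efs at 0.276 and Cass4 at 0.223 FPKM or less in every library. Sh2d3c, the relative of Bcar3 in blood cells, was at 8.03 to 13.2 FPKM and had log2 fold changes of 0.34 in M-Shp2-/- (0.26 without replicate 3) and 0.41 with SHP099, neither past the threshold (limma adjusted p = 0.478 and 0.125). The medians of the module were 0.12 in M-Shp2-/- (0.09 without replicate 3) and 0.10 with SHP099, beside 0.15 and 0.13 over all genes.

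Of 20 immune receptor substrates and adaptors 19 passed the filter, and 1, the exchange factor Vav3, fell with SHP099. It was at 36.9 ± 4.46 FPKM in wild type, 30.1 ± 2.46 FPKM in M-Shp2-/- and 25.0 ± 1.57 FPKM with SHP099 (SD, n = 3 each), a change of -0.54 with SHP099 (SE 0.109, lower in 3 of 3 libraries, limma adjusted p = 0.0351). Over the alternatives this change ran from -0.69 to -0.45 and the adjusted p from 0.0262 to 0.136, so the call was lost in some of them. The 1 call with SHP099 was 5.26% of the 19, beside 6.96% of all genes. List medians were 0.02 in M-Shp2-/- (0.08 without replicate 3) and -0.05 with SHP099.

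**Figure D4:**
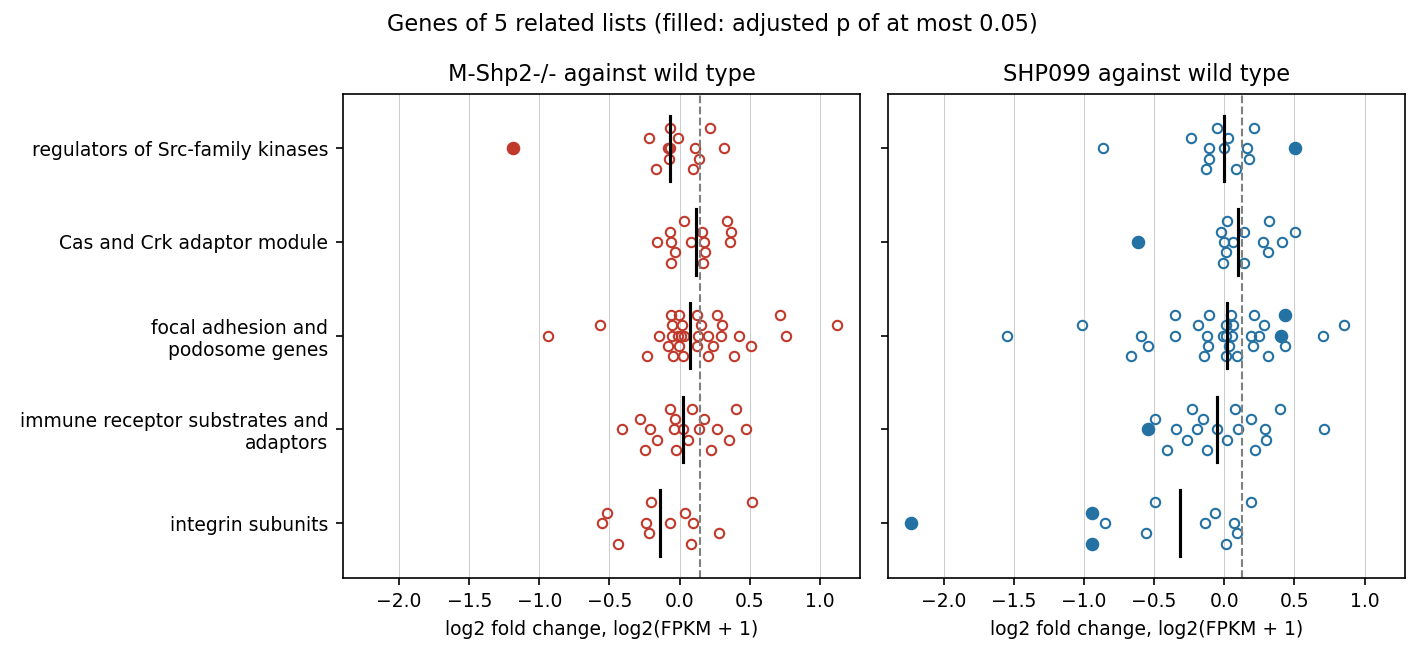
Log2 fold change (x axis) of each gene above the filter in 5 lists (y axis), for M-Shp2-/- and for SHP099 against wild type; filled points have an adjusted p of at most 0.05, black bars are list medians and the dashed line is the median of all genes. With SHP099 3 genes are filled on the higher and 5 on the lower side, the lowest being Itgax at -2.23.

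The genes with the profile most like Src over the 9 libraries, by the root-mean-square difference of centred log2(FPKM + 1), were Ptgs2os2 (0.0723), Zfp658 (0.132), Msr1 (0.151), Tarm1 (0.155) and Itga1 (0.159). Msr1, a macrophage scavenger receptor, averaged 328 FPKM in wild type, 229.8 FPKM in M-Shp2-/- and 153 FPKM with SHP099. Itga1, a collagen-binding integrin subunit, averaged 4.34, 2.28 and 1.48 FPKM. The closest of the other 8 genes to Src was Lyn, at 0.331.

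For Bcar3 the nearest profiles were those of Clec7a (0.209), Olr1 (0.216), Kcnn4 (0.226), Axl (0.236) and Cd83 (0.299). Clec7a, the beta-glucan receptor Dectin-1, averaged 364, 219.8 and 97.6 FPKM in wild type, M-Shp2-/- and SHP099. Axl, a receptor tyrosine kinase, averaged 56.7, 48.0 and 16.2 FPKM, and Cd83, an activation marker, 84.7, 48.0 and 24.3 FPKM. In each of the 5, M-Shp2-/- replicate 3 was the lowest library of its group, as for Bcar3. The 5 genes were chosen by likeness to Bcar3 over these same libraries, so this follows from the choice and is no separate result. Src was the closest of the other 8 genes to Bcar3, at 0.540.

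Markers of further cell types bear on what the libraries hold. Of 10 neutrophil markers 6 stayed under 1 FPKM in every library, among them Ly6g at 0.0362 FPKM or less and Mpo at 0.0338 FPKM or less. The others included Csf3r, the most abundant, at 51.5 to 94.2 FPKM, S100a8 at 34.5 to 95.4 FPKM and Camp at 2.92 to 4.95 FPKM, and the sum of all 10 was 94.2 to 173 FPKM. T cell markers summed to 5.05 FPKM or less, mast cell markers to 4.82, mesothelial markers to 11.4, endothelial markers to 5.33 and platelet markers to 0.625 FPKM or less, led by Cd3g, Tpsb2, Wt1, Kdr and Itga2b. Kdr fell by 1.08 with SHP099 (limma adjusted p = 0.0406), from 2.27 to 4.76 FPKM in wild type to 0.970 to 1.30 FPKM. Mast cell sums were 1.59 to 4.82 FPKM in wild type, 0.252 to 1.43 FPKM in M-Shp2-/- and 0.279 to 0.614 FPKM with SHP099, so every wild-type library was above all others. With SHP099 the endothelial sum was also below the wild-type range and the platelet sum above it. Their part in the results was not tested. Fcer1a and Gp1bb were at 0 in all libraries, and exons of Gp1bb overlap those of Sept5 by 1902 bases on the same strand. Mesothelial and neutrophil sums were highest in M-Shp2-/- replicate 3, as fibroblast sums were, and Ighm was at 175 FPKM there and at 5.97 to 44.8 FPKM in the other libraries. Their part in the values of that library was not tested.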

How the data were processed

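Peritoneal macrophage RNA was measured in 9 libraries. The authors aligned reads with HISAT2 2.0.4, counted reads per gene with HTSeq 0.9.1 and deposited FPKM for 54059 genes; CASAVA 1.8 is also named in the submitters' processing notes. The genome build, the annotation, the tool that made FPKM and the strand of counting are not given in the sources used here. Groups and replicates were taken from sample titles, treatments from the study's methods. A deposited table of newly assembled genes was not used.

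Symbols, positions and exon overlaps came from GENCODE M21 (GRCm38), in which 353 genes were not found. FPKM multiplied by mean transcript length fell on whole reads, within 0.05, in 96.2% to 96.7% of values of up to 50 reads (10% by chance), which gave 39842317 to 50980242 reads per library; counting error is therefore small for all but genes near 1 FPKM. Genes averaging 1 FPKM or more were analysed as log2(FPKM + 1) with limma 3.58.1 (lmFit, eBayes with trend; R 4.3.3). Each fit took only the 6 libraries being compared and was two-sided, with Benjamini-Hochberg adjustment over all genes tested and calls at an adjusted p of at most 0.05. In simulated data the procedure seldom found changes as small as those of the 9 genes in M-Shp2-/-. Replicates of a group differed by more than counting error (chi-square per degree of freedom 23.9 to 272). Tables, motif searches and plots used matplotlib 3.10.9, pandas 2.3.3 and numpy 2.4.6 under Python 3.11.15.

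The 9 genes and the lists (regulators of Src-family kinases, Cas and Crk adaptor module, focal adhesion and podosome genes, immune receptor substrates and adaptors, integrin subunits, and markers of macrophages, neutrophils, T cells, mast cells, fibroblasts, mesothelial cells, endothelial cells and platelets) were chosen with earlier results of these data known. One further list, counted in the totals over 6 lists, and one further marker set are not reported here. Named were the 9 genes, list genes called in a comparison (at most 15 each), Ptpn11, the 5 nearest profiles of Src and of Bcar3, and cell type markers; Ptprc, Nedd9, Efs, Cass4, Sh2d3c and Ilk were named after their values were seen. Alternatives were pseudocounts of 0.1 and 5, no filter, a minimum mean of 5, median-of-ratios scaling, quantile normalization, no trend, all 9 libraries in one fit, a replicate block, an adjusted p of at most 0.005 with a log2 fold change of 1 or more either way, voom on recovered reads, a fibroblast score (mean log2 value of the markers) as covariate, and each library left out.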

Additional observations from a re-analysis of the deposited data

Results flagged for a closer look

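Of the list genes, 1 was past the threshold between gene loss and inhibition. Ptpn11 had a log2 fold change of -1.13 in M-Shp2-/- against SHP099 (limma adjusted p = 0.0109, lower in 3 of 3 libraries), and it is the gene that was deleted in the first group and left intact in the second. The call was lost without any one of the other 5 libraries, with a replicate block and at the study's thresholds. Without M-Shp2-/- replicate 3 it held and 33 of the 92 list genes were past the threshold, beside 2277 of all 11450 genes.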

How the results depend on the processing

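For M-Shp2-/- against wild type, 0 of the 9 genes were called under each of the 18 alternatives, which is no sign of stability because changes this small seldom pass the threshold, and 155 of 161 fold changes kept their sign. The others were Fgr (-0.0366 with median-of-ratios scaling, -0.0329 to 0.466 with a library left out) and Ptk2b (0.0259 with the fibroblast score, -0.375 to 0.0628 with a library left out). The 10 genes called became 6 without the trend and 1 at the study's thresholds, and 1 to 8 with a library left out; the 1 list gene became 0 at the study's thresholds and 0 to 1 with a library left out.

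With SHP099 the 797 genes called became 74 without a filter, 511 with median-of-ratios scaling, 19 at the study's thresholds and 47 to 1273 with a library left out. The 8 list genes called became 2, 16 with a minimum mean of 5, 14 with quantile normalization, 0 at the study's thresholds and 1 to 18 with a library left out. Over the alternatives, calls of these 8 genes held in 86 of 144 fits.

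Between M-Shp2-/- and SHP099 the 8 genes called became 3 without a filter, 17 with a minimum mean of 5, 3 with all 9 libraries, 14 with voom, 61 with the fibroblast score, 0 at the study's thresholds and 0 to 2277 with a library left out. The 1 list gene became 0 at the study's thresholds and 0 to 33 with a library left out. The study's thresholds are stricter by construction and leaving out a library reduces the samples; the cause of the other changes was not tested. Bcar1 has no value at a minimum mean of 5. Of 432 medians of all genes and lists, 384 moved by less than the SD between replicates.

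Deviations from the group means were correlated between same-numbered libraries at 0.492, -0.431 and 0.185 for M-Shp2-/- and wild type. For SHP099 and wild type the values were -0.041, -0.090 and 0.454. Libraries with unlike numbers ran from -0.627 to 0.544 and from -0.402 to 0.491. Deviations of 3 libraries from their mean depend on one another, so whether replicates were paired by number cannot be told from these values. With a replicate block, 2, 591 and 0 genes were called in the 3 comparisons, and 0, 8 and 0 list genes.

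Depth limits only genes near 1 FPKM, such as Bcar1 with 44 reads at the least.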
